A study of Mus musculus with 78 samples.

Results

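The comparison is between 2 transgenic mouse lines that both mark bipolar cells of the ON pathway of the adult retina. It uses the 6 arrays of these lines out of 78 in the series, and the 19446 of 22347 probe sets on the array that carry 1 gene symbol. In the mGluR6 set (3 arrays, labelled ON-bipolar cell, batch 2) the line is B6Cf1-Tg(mGlur6-Cre)BR crossed to Rosa26-LSL-RFP, in which the mGluR6 transgene supplies Cre and a recombined Rosa26 reporter supplies the red fluorescent protein. In the Pcp2 set (3 arrays, labelled rod bipolar cell, batch 1) the line is B6:FVB-Tg(Pcp2-EGFP)2Yuza, in which the Pcp2 transgene drives the green fluorescent protein directly. Both sets are given as adult, on a background of FVB/N-Swiss Webster hybrid mixed with C57BL/6J, and mice from a repository that carried a recessive photoreceptor degeneration mutation had been backcrossed. Retinas were dissociated with papain for 15 min, and each sample is the RNA of 200 cells sorted on fluorescence, scatter and pulse width. Where a further bipolar reference is needed, the Kcng4 line (B6Cf1-Tg(Kcng4-CreERT2, #)BR crossed to Rosa26-LSL-RFP, in which Cre is inducible) and the Lhx4 line (Tg(Lhx4-EGFP)199Gsat) are used, with 3 arrays each, both labelled only as bipolar cells, adult, in batch 3 and on the same background. The labels do not say which bipolar types these 2 lines hold.

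Bipolar cells carry the signal of photoreceptors to the inner retina. ON types sense glutamate with mGluR6, the product of Grm6, which acts through the G protein subunit Gnao1 to close the cation channel Trpm1 in darkness, so that these cells depolarise to light. Rod bipolar cells are one ON type and are recognised by protein kinase C alpha (Prkca), and several cone bipolar types make up the rest. Pcp2 is a modulator of G proteins found in rod bipolar cells and some cone bipolar cells, and Bhlhe23 is a basic helix-loop-helix factor needed for the maturation of rod bipolar cells.

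The 250 bases upstream of the start of Grm6, Bhlhe23 and Pcp2 are shown because these genes name the lines or differed most among the 4 line markers. They come from RefSeq annotation of build GRCm38.p6, read 5′ to 3′ on the strand of the gene, at chr11:50850435-50850684 (plus strand), chr2:180776901-180777150 (minus strand) and chr8:3625548-3625797 (minus strand, for the start farthest upstream of the 4 that the table lists).
Grm6: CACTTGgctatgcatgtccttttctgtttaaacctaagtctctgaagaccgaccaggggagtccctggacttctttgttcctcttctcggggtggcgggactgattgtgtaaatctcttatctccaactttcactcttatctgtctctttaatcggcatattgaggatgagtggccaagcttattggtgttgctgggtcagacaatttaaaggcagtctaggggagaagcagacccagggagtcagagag
Bhlhe23: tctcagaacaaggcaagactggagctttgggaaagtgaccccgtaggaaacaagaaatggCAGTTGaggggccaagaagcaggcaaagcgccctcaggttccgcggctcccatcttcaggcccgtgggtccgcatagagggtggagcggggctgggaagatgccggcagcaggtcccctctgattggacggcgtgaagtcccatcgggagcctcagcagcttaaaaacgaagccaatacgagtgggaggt
Pcp2: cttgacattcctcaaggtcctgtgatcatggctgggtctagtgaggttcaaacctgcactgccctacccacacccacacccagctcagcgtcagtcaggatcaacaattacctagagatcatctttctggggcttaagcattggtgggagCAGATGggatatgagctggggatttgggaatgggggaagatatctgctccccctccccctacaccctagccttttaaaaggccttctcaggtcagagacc
The capitals mark matches to CANNTG, the core that basic helix-loop-helix factors bind, which reads the same on both strands. Each window holds 1 match, and 66.2% of the 32851 promoter windows of that length hold at least 1. The letters TAATCC, searched on both strands as the core bound by Otx2 and Crx, were in none of the 3 windows and in 6.25% of all windows. A match is a description of the letters only.

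Each value is an intensity on a linear scale as deposited, and differences are mGluR6 minus Pcp2 on the log2 scale with the standard error (SE) of the fit. This SE rests on the spread within all 26 sets, so it can be wider or narrower than the spread of the 6 arrays. Probe sets entered the test where some set of the 26 had a mean above 9.01, which is the median intensity of the table. This kept 15212 probe sets for 15102 genes and left out 4234 as dim. It was called if the adjusted p of limma, corrected by Benjamini-Hochberg over all tested probe sets, was below 0.05 and the difference at least 1. In most arrays the lowest values follow the order of the probe set numbers, so they carry no reliable order. This run ended at 1.25, 0.70 and 0.77 in the mGluR6 arrays and at 0.18, 0.30 and 0.21 in the Pcp2 arrays. The floor was set at 3.99, the highest end of such a run in the series, found in Drd4 replicate 1. A difference that rests on values at or below it is given as a bound, written "at least", computed with values raised to that floor. In sorted material of this kind, fewer cells of a type and less RNA per cell cannot be told apart. The labels put the 2 sets in different batches, so line and batch cannot be told apart from these 6 arrays. Batch could be entered as a term from 2 other lines measured repeatedly, b2 (rods) and Arc (amacrine cells), and that value is given where it ends a call. Across probe sets, which are not independent replicates, arrays of the mGluR6 set correlated at 0.907 to 0.930, arrays of the Pcp2 set at 0.919 to 0.927, and arrays of different sets at 0.823 to 0.888. Xist, the RNA of the inactive X chromosome, read 17.0 in Pcp2 replicate 3 against 215 to 350 in the other 5 arrays, and the Y-linked gene Eif2s3y read 67.3 there against at most 1.56. Neither differed between the sets by the fit (adjusted p = 0.81 and 0.52).

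Of 15212 tested probe sets 622 were called, or 4.09%. Of these, 461 (3.03%) were higher in mGluR6 and 161 (1.06%) were higher in Pcp2. The 3 arrays of each set did not overlap for 446 and 156 of them. The share of all tested probe sets whose arrays lie apart is not given. Counts of arrays lying apart, here and in the lists below, are therefore a description. The median difference over all tested probe sets was 0.02. Calls in each list below are to be read beside the shares of 3.03% and 1.06%. An unadjusted limma p below 0.05 was found for 3019 of the 15212, and list counts of unadjusted p are to be read beside that. With batch as a term, 127 probe sets (0.835%) were higher in mGluR6 and 24 (0.158%) higher in Pcp2, together 0.993% of those tested. Of these, 119 and 21 were also called in the same direction without the term. The repeated rod sets were compared in the same way: 187 probe sets (1.23%) were called between its batch 2 and batch 1 sets, with 0.671% higher and 0.559% lower in batch 2. Between the second and first Arc sets 8 (0.0526%) were called, with 0.046% higher and 0.00657% lower in the second. Leaving out mGluR6 replicate 1 left 268 (1.76%) higher in mGluR6 and 39 (0.256%) higher in Pcp2, together 2.02%.

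**Figure D1:**
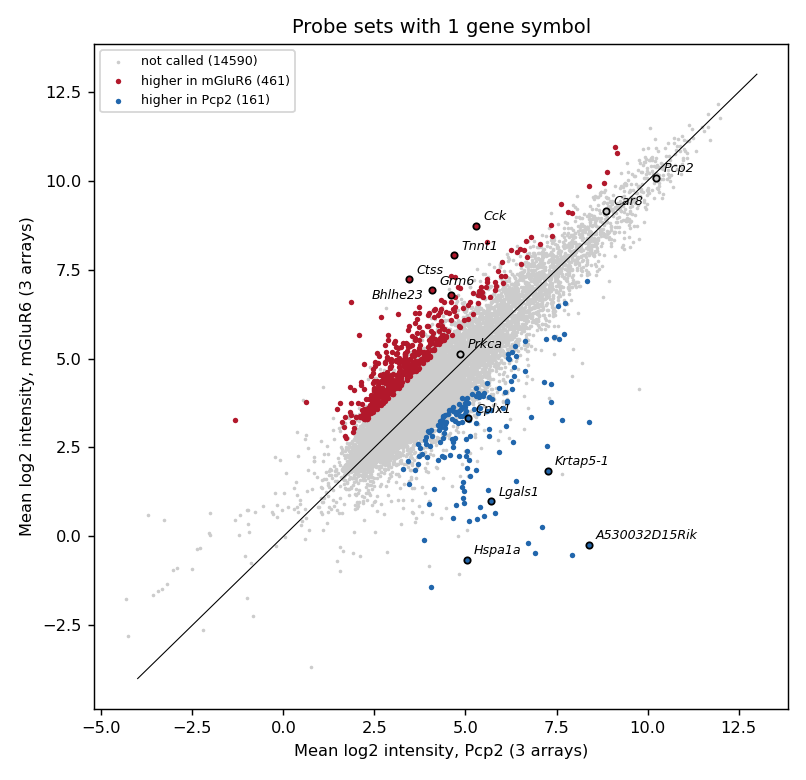
Mean log2 intensity of each tested probe set in the Pcp2 set (x axis) and the mGluR6 set (y axis), over 3 arrays each. Red points are the 461 probe sets called higher in mGluR6, blue points the 161 called higher in Pcp2, grey points the rest, and the line marks equal means. Grm6 and Cck lie above the line, Pcp2 and Prkca close to it, and A530032D15Rik and Hspa1a far below it at means under the floor.

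Grm6, the glutamate receptor of ON bipolar cells, had the lowest adjusted p of the genes named here. Its intensity was 109, 151 and 107 in the mGluR6 arrays and 16.2, 15.2 and 19.4 in the Pcp2 arrays. All 3 mGluR6 arrays lay above every Pcp2 array, and the difference was 2.85 (SE 0.24, n = 3 arrays per set, limma adjusted p = 4.1e-13). With batch as a term it was 3.03 (adjusted p = 8.7e-11), and over the 6 fits that each left out 1 array it ran from 2.68 to 2.95. The Pcp2 mean did not stand above the other bipolar lines: the Kcng4 mean was 16.0 and the Lhx4 mean 18.8. The mGluR6 set was the highest of the 26 sets for Grm6, and the next after it, the Drd4 set, reached 21.4. Whether the Grm6 probe set also reads sequence carried by the mGlur6-Cre transgene, which the Pcp2 line lacks, was not tested.

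Bhlhe23 followed the same order. It read 133, 117 and 86.9 in the mGluR6 arrays and 22.6, 22.8 and 28.4 in the Pcp2 arrays, again without overlap. The difference was 2.18 (SE 0.24, limma adjusted p = 5.3e-09), and 2.14 with batch as a term. The Pcp2 mean was close to that of the Kcng4 line (25.6) and below that of the Lhx4 line (45.2). Although Bhlhe23 is a marker of rod bipolar cells, the line labelled ON-bipolar cell had the higher level, not the line labelled rod bipolar cell.

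The other 2 line markers did not separate the sets. Pcp2 itself read 1073, 1031 and 1178 in the mGluR6 arrays and 1116, 1218 and 1300 in the Pcp2 arrays, which overlap, with a difference of -0.15 (SE 0.57, adjusted p = 0.93). Its mean was 686 in the Kcng4 line and 980 in the Lhx4 line. Prkca read 39.8, 34.9 and 31.3 against 37.1, 31.5 and 21.0, with a difference of 0.28 (SE 0.29, adjusted p = 0.65). Neither p shows that the lines have equal levels.

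**Figure D2:**
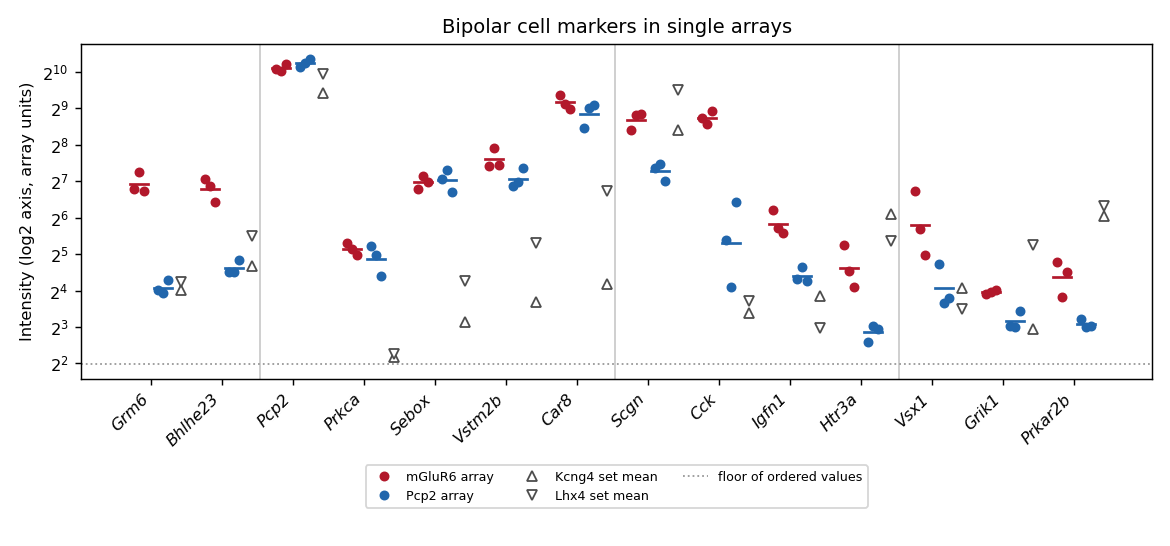
Intensity on a log2 axis of 14 bipolar cell markers in each mGluR6 array (red) and Pcp2 array (blue), with short lines at the set means and open triangles at the means of the Kcng4 and Lhx4 lines. The groups from left to right are the line markers called between the lines, rod bipolar markers, and examples of the ON cone and of the OFF cone bipolar markers. The 2 members of the ON cone list whose arrays lay wholly below those of Pcp2 are not shown. The red and blue points of Pcp2, Prkca, Sebox and Car8 overlap, while those of Grm6, Bhlhe23, Cck, Igfn1, Htr3a and Vsx1 do not.

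Of the remaining markers of rod bipolar cells none was called between the lines, and Sebox, Car8 and Vstm2b stood far above the other bipolar lines in both. Sebox, a homeobox gene, read 111, 142 and 127 in the mGluR6 arrays and 134, 159 and 104 in the Pcp2 arrays, with means of 8.87 and 19.0 in the Kcng4 and Lhx4 lines. Car8, a protein related to carbonic anhydrases, read 661, 560 and 508 against 350, 517 and 548, with means of 18.2 and 107 in those lines. Vstm2b read 170, 242 and 175 against 116, 126 and 164, and its arrays did not overlap, but its difference of 0.53 (SE 0.37, adjusted p = 0.45) did not pass the test. Of the 6 rod bipolar markers tested, 1 (Bhlhe23) was called between the lines, and their median difference was 0.29.

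Against the mean of the Kcng4 and Lhx4 lines, 5 of these 6 markers were higher in mGluR6 and 4 were higher in Pcp2. Over all tested probe sets 1.79% were called higher and 0.782% lower in mGluR6 (2.57% in all), and 0.979% higher and 1.76% lower in Pcp2 (2.73% in all). The comparisons share the reference arrays, and the reference is in batch 3, so each line's values are given side by side. Prkca was higher by 2.92 (SE 0.25) in mGluR6 and by 2.65 (SE 0.25) in Pcp2. Sebox was higher by 3.28 and 3.33, and Car8 by 3.70 and 3.39. These 6 limma adjusted p-values lie at or below 6.2e-08. Grm6 was higher by 2.80 in mGluR6 (SE 0.20, adjusted p = 8.6e-16), while the value for Pcp2 was -0.04 (SE 0.20, adjusted p = 0.95). Trpm1, the channel of the same cascade, was higher by 1.59 in mGluR6 (SE 0.30, adjusted p = 0.00035), and the value for Pcp2 was 0.81 (SE 0.30, adjusted p = 0.12). Prkca, Sebox and Car8 thus stood above the reference in both lines, while Grm6, which defines ON bipolar cells, passed the test against it in the mGluR6 line and not in the Pcp2 line.

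Of 13 tested markers of ON cone bipolar cells 3 were higher in mGluR6 (Cck, Htr3a and Igfn1) and 0 in Pcp2, with a median difference of 0.38. The differences ran from -0.70 to 3.44, and 8 were positive. The arrays of 5 lay wholly above and of 2 wholly below those of Pcp2. Their summed intensity over 13 members was 1020, 1029 and 1197 in the mGluR6 arrays and 363, 359 and 426 in the Pcp2 arrays, against 681 to 772 in the Kcng4 arrays and 839 to 1112 in the Lhx4 arrays. Most of that sum in mGluR6 came from Cck and Scgn.

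Cck, which encodes the neuropeptide cholecystokinin, read 426, 382 and 482 in the mGluR6 arrays and 41.5, 17.2 and 85.5 in the Pcp2 arrays. The Pcp2 arrays spread widely among themselves, and the difference was 3.44 (SE 0.82, adjusted p = 0.0064). With batch as a term the difference was 2.77 and the call was lost (adjusted p = 0.22), as it was without Pcp2 replicate 2 (2.84, adjusted p = 0.068). The mGluR6 mean was the highest of the 26 sets, and the Kcng4 and Lhx4 means were 10.5 and 13.1.

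Htr3a and Igfn1 were called with and without the batch term. Htr3a, a subunit of the serotonin-gated channel, read 37.8, 23.0 and 17.1 against 6.03, 8.18 and 7.71, a difference of 1.76 (SE 0.30, adjusted p = 0.0001) and 1.78 with the term. Its level in the Kcng4 line was higher still, with a mean of 68.1. Igfn1, a protein with immunoglobulin-like and fibronectin domains, read 73.5, 52.1 and 47.4 against 19.8, 25.1 and 19.2, a difference of 1.42 (SE 0.30, adjusted p = 0.0019). Scgn, a calcium-binding protein of cone bipolar cells, had a similar difference of 1.41, and its arrays did not overlap (337, 453 and 457 against 165, 179 and 127), but it did not pass the test (SE 0.62, adjusted p = 0.19). In the b2 rods of batch 1 the mean of Scgn was 7.20, far below both lines.

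Of 10 tested OFF cone bipolar markers 1 was higher in each line, with a median difference of 0.03. Vsx1, a homeodomain factor of cone bipolar cells, read 106, 51.1 and 31.2 in the mGluR6 arrays and 26.3, 12.6 and 14.0 in the Pcp2 arrays. The difference was 1.73 (SE 0.34, adjusted p = 0.00072), and 1.82 with batch as a term. Col11a1, a fibrillar collagen chain, read 7.5, 11.4 and 14.9 against 25.3, 22.6 and 21.6, a difference of -1.09 (SE 0.32, adjusted p = 0.032) that was lost with the term (adjusted p = 0.20) and without any 1 of the arrays other than mGluR6 replicate 3 (adjusted p from 0.062 to 0.23). Grik1, the kainate receptor subunit of OFF cone bipolar cells, read 15.1, 15.6 and 16.1 against 8.09, 8.0 and 10.8, but its difference of 0.81 did not pass (SE 0.39, adjusted p = 0.23).

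Of the 12 genes of the mGluR6 cascade 11 were tested, and 3 were higher in mGluR6, namely Grm6, Rgs7 and Rgs11. The median difference of the 11 was 0.55. Rgs7 and Rgs11 speed the return of the G protein to rest and so the opening of Trpm1. Rgs11 read 171, 147 and 115 against 35.0, 52.6 and 93.3, a difference of 1.36 (SE 0.36, adjusted p = 0.014), and with batch as a term 1.43 (adjusted p = 0.081). Rgs7 read 84.8, 63.7 and 81.7 against 24.2, 44.7 and 45.8, a difference of 1.05 (SE 0.29, adjusted p = 0.02), and with the term 0.78 (adjusted p = 0.36). Both calls also missed the threshold without mGluR6 replicate 1 (adjusted p = 0.09 for Rgs11 and 0.097 for Rgs7) and without Pcp2 replicate 1 (0.16 and 0.20), Rgs11 without Pcp2 replicate 2 (0.054), and Rgs7 without mGluR6 replicate 3 (0.056).

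The channel and the G protein that couple to the receptor did not pass the test. Trpm1 read 110, 124 and 128 against 81.6, 69.0 and 61.8, which do not overlap, with a difference of 0.77 (SE 0.35, adjusted p = 0.19). Gnao1 was nearly flat at 750, 723 and 738 against 784, 790 and 809, a difference of -0.11 (SE 0.34, adjusted p = 0.91). The beta subunit Gnb3 differed by 0.55 (SE 1.11) and the gamma subunit Gng13 by -0.31 (SE 0.59), with adjusted p of 0.84 and 0.83. The organisers Nyx and Gpr179, which hold the receptor complex at the dendritic tip, read 9.88 to 15.2 and 14.9 to 16.3 in the mGluR6 arrays and 13.6 to 22.7 and 12.4 to 17.0 in the Pcp2 arrays. Lrit3, another protein of that complex, was too dim to be tested. Grm6 thus differed by 2.85 while the other 10 tested members of its cascade differed by -0.49 to 1.36.

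**Figure D3:**
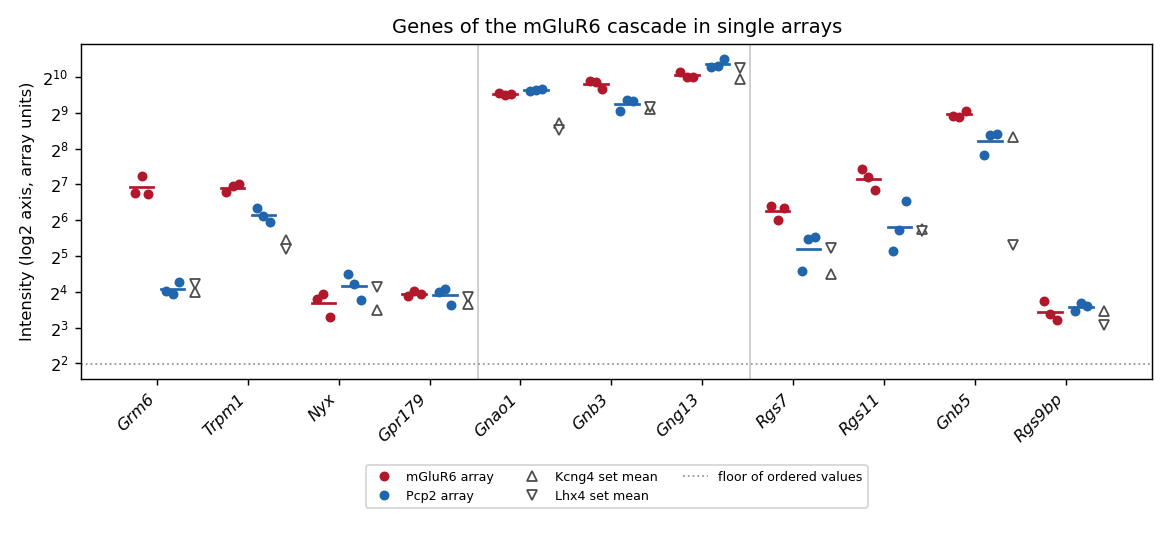
Intensity on a log2 axis of the 11 tested genes of the mGluR6 cascade in each mGluR6 array (red) and Pcp2 array (blue), with short lines at the set means and open triangles at the means of the Kcng4 and Lhx4 lines. From left to right stand the receptor, channel and organisers, the G protein subunits, and the regulators of G protein signalling. Grm6 shows the widest gap between red and blue, and Gnao1 almost none.

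Among 18 tested transcription factors of bipolar cells 3 were higher in mGluR6: Bhlhe23, Vsx1 and St18. St18, a zinc finger factor, read 57.9, 54.7 and 40.0 against 16.1, 27.0 and 24.6, a difference of 1.19 (SE 0.28, adjusted p = 0.0064) that missed the threshold with batch as a term (adjusted p = 0.093) without mGluR6 replicate 1 (adjusted p = 0.052) and without Pcp2 replicate 1 (0.081). Isl1, a LIM homeodomain factor of ON bipolar cells, read 705, 733 and 576 against 571, 634 and 693. Otx2, which specifies photoreceptors and bipolar cells, read 258, 272 and 233 against 216, 147 and 134, but did not pass (difference 0.65, SE 0.92, adjusted p = 0.76). Neurod4 had a difference of 1.32 without overlap of its arrays and did not pass either (SE 0.52, adjusted p = 0.13).

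Receptors for inhibitory input differed in 2 of 13 tested genes, both higher in mGluR6. Gabrr1 encodes a subunit of the GABA-C receptor of bipolar cell terminals and read 270, 241 and 262 against 41.8, 102 and 148. Its difference was 1.59 (SE 0.43, adjusted p = 0.018), and with batch as a term 1.76 (adjusted p = 0.086). Gabrb1 read 25.4, 12.1 and 29.5 against 5.39, 5.84 and 5.53, a difference of 1.90 (SE 0.40, adjusted p = 0.0018), and with the term 1.16 (adjusted p = 0.34). The partner subunit Gabrr2 overlapped between the lines, at 329 to 487 against 177 to 340. The adjusted p of Gabrr1 was 0.074 without mGluR6 replicate 1 and 0.22 without Pcp2 replicate 1.

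Cell surface adhesion genes gave 4 of 45 tested members higher in mGluR6 and 0 higher in Pcp2, with a median difference of 0.09. The 3 cadherins among them mediate calcium-dependent contact between cells. Cdh9 read 41.9, 34.6 and 17.3 against 7.05, 5.58 and 5.58, a difference of 2.28 (SE 0.30, adjusted p = 7.9e-07), and 2.30 with batch as a term. The Kcng4 mean was 42.3 and the Lhx4 mean 21.1, so the Pcp2 line was the low one of the 4 bipolar lines. Cdh12 read 21.8, 22.3 and 18.4 against 5.91, 5.85 and 6.22, a difference of 1.79 (SE 0.32, adjusted p = 0.00023), and here the mGluR6 line was the high one, with Kcng4 and Lhx4 means of 5.88 and 5.99. Cdh11 (1.06) and Ntng1 (1.38), which encodes netrin-G1, were called without the batch term and missed the threshold with it (adjusted p = 0.088 and 0.097). Cdh11 also lost its call without mGluR6 replicate 1 (adjusted p = 0.097), Pcp2 replicate 3 (0.082) or Pcp2 replicate 1 (0.050).

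Lists of genes of excitability and transmission held few calls, as did the array as a whole (4.09%). No voltage-gated channel gene of 37 tested and no glutamate receptor gene of 18 tested was called by limma, with median differences of 0.07 and 0.03. An unadjusted p below 0.05 was found for 4 of each, and for 3019 of all 15212 tested probe sets. None of 6 gap junction genes was called (1 with an unadjusted p below 0.05). Gjd2, the connexin of electrical synapses between AII amacrine and cone bipolar cells, read 35.8, 36.7 and 75.8 against 20.9, 9.73 and 13.3 and just missed the threshold (difference 1.74, SE 0.55, adjusted p = 0.051). Of 18 ribbon synapse genes only Slc17a7, a vesicular glutamate transporter, was higher in mGluR6. It read 23.8, 21.1 and 19.2 against 6.66, 10.4 and 8.83, and its call (difference 1.33, adjusted p = 0.043) was lost in each of the 6 fits without 1 array and with batch as a term (1.09, adjusted p = 0.38). Of 19 calcium-binding proteins Hpca, which encodes hippocalcin, was higher in mGluR6 (1.43, adjusted p = 0.019) and its relative Hpcal1 higher in Pcp2. Hpcal1 read 1.47, 1.09 and 11 against 27.0, 33.4 and 29.8, a difference of at least 2.42 in size (adjusted p = 0.0053 on the values as deposited). Without mGluR6 replicate 1 the adjusted p of Hpca was 0.097 and that of Hpcal1 0.055. Hpca also lost its call without Pcp2 replicate 2 (0.075) or 3 (0.088), and Hpcal1 without mGluR6 replicate 2 (0.062). With batch as a term Hpca was not called (adjusted p = 0.055).

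Of 17 tested glycolysis genes 2 were higher in mGluR6, and the median difference was 0.52. The arrays of 10 lay wholly above and of 1 wholly below those of Pcp2. None of 34 oxidative phosphorylation genes was called and their median was -0.07 (7 had an unadjusted p below 0.05 in limma). The arrays of 6 of these lay wholly above and of 10 wholly below those of Pcp2. Tpi1, triosephosphate isomerase, read 969, 958 and 1048 against 340, 566 and 455, a difference of 1.16 (SE 0.26, adjusted p = 0.0032). With batch as a term the difference was 0.22 (adjusted p = 0.87), and less the batch difference of the b2 rods it was -0.23 (adjusted p = 0.86). Without Pcp2 replicate 1 it was 0.97, just under the threshold. Pfkm, muscle-type phosphofructokinase, read 100, 52.4 and 59.5 against 23.0, 35.4 and 37.8, a difference of 1.11 (SE 0.33, adjusted p = 0.036). It was lost without mGluR6 replicate 1 (adjusted p = 0.26), Pcp2 replicate 1 (0.20) or Pcp2 replicate 2 (0.062), and with batch as a term (adjusted p = 0.10). Aldoa, aldolase A, differed reliably but by less than the threshold (0.69, SE 0.13, adjusted p = 0.00055).

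**Figure D4:**
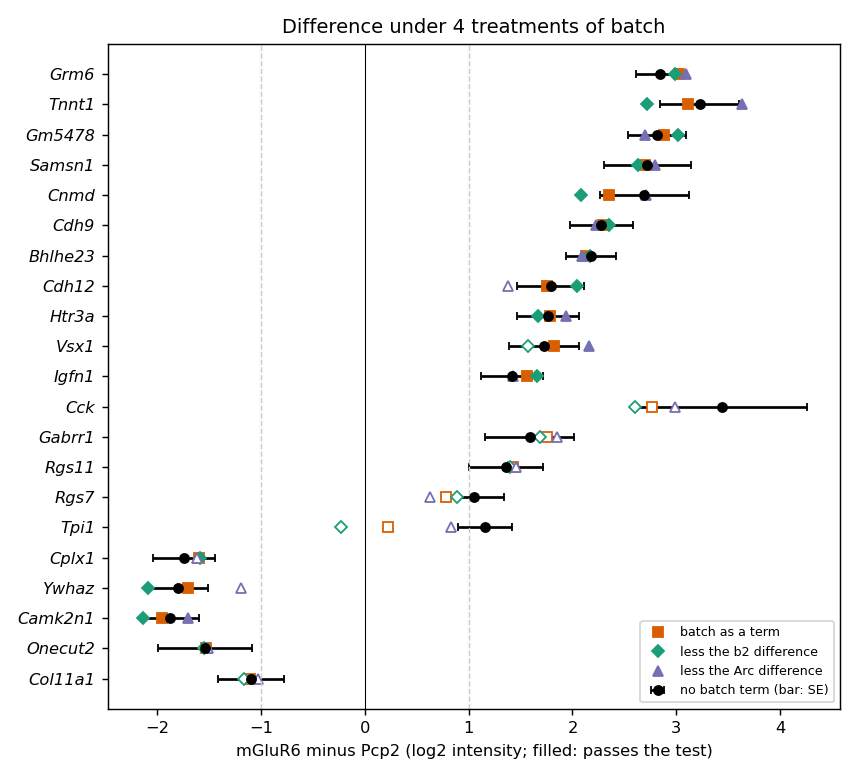
Difference of mGluR6 minus Pcp2 in log2 intensity for 21 named genes. Black marks the fit without a batch term, with its SE, and orange squares the fit with batch as a term. Green diamonds are less the batch difference of the b2 rods. Purple triangles are less the difference between the second and first Arc sets, of which the second carries no batch label. Filled coloured symbols pass both thresholds of a call, open ones do not. Grm6 stays near 3 under all 4 treatments, whereas Tpi1 moves from 1.16 to 0.22 with the term.

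The rule for the largest differences took, for each direction, the 12 genes with the largest difference among calls whose arrays did not overlap, and the 12 largest among those also called with batch as a term. Higher in mGluR6 it named Ctss, C1qc, Cck, Abracl, Tnnt1, Pradc1, Grm6, Gm5478, Actc1, Samsn1, Cnmd, Cyba, C1qb and C1qa. Tnnt1, the slow skeletal form of troponin T, read 182, 247 and 306 against 21.7, 39.7 and 19.4, a difference of 3.22 (SE 0.38, adjusted p = 3.6e-08). Cnmd, chondromodulin, read 243, 292 and 419 against 66.2, 38.1 and 43.6, a difference of 2.69 (SE 0.43, adjusted p = 3.2e-05). For both genes, and for Gm5478 (39.5, 44.2 and 75.9 against 6.07, 9.92 and 6.38), the mGluR6 set was the highest of all 26. Pradc1 read 44.7, 94.8 and 215 against 9.42, 0.124 and 41.6 and was higher by at least 3.06. Its call was lost with batch as a term (adjusted p = 0.053) and without Pcp2 replicate 2 (2.29, adjusted p = 0.39), mGluR6 replicate 2 (0.066) or mGluR6 replicate 3 (0.093).

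Samsn1, an adaptor protein, read 156, 141 and 182 against 16.3, 29.5 and 29.2, but the Kcng4 and Lhx4 lines were higher, at means of 304 and 391. Actc1, cardiac actin, showed 77.5, 78.4 and 113 against 11.5, 23.5 and 8.43, below the Kcng4 mean of 174. Of the 461 probe sets higher in mGluR6, the mGluR6 mean was the highest of the 4 bipolar sets for 83.3% and the Pcp2 mean the lowest for 81.3%. Over all tested probe sets these shares were 28.2% and 28.5%. Since the call itself sorted these probe sets on mGluR6 and Pcp2, these shares are a description.

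Several further genes of receptors and release, picked after their values were seen, kept their call with batch as a term. Unc13c, a priming factor for synaptic vesicles, read 36.8, 41.7 and 42.6 in mGluR6 and 8.70, 9.76 and 9.76 in Pcp2 (adjusted p = 4e-05, and a difference of 2.03 with the term). Vipr2, a receptor for vasoactive intestinal peptide, read 21.7, 38.7 and 35.3 against 9.58, 8.05 and 10 (difference 1.75, SE 0.33, adjusted p = 0.00053). The Kcng4 and Lhx4 means of Vipr2 were higher, at 64.1 and 40.0, so the Pcp2 line was the low one of the 4 bipolar lines. Cacna1s, a calcium channel subunit best known from skeletal muscle, read 22.9, 22.0 and 16.6 against 10.5, 8.24 and 10 (difference 1.09, SE 0.19, adjusted p = 0.00013). Without Pcp2 replicate 2 its difference was 0.99, just under the threshold. Adra2c, an adrenergic receptor, had its highest mean of the 26 sets in mGluR6, with 32.1, 25.1 and 27.2 against 9.97, 9.67 and 12.8 (difference 1.38, SE 0.36, adjusted p = 0.012), and its call was lost without mGluR6 replicate 1 (adjusted p = 0.076) or Pcp2 replicate 1 or 2 (0.057 each). In these genes the arrays of the 2 lines did not overlap. Less the difference between the second and first Arc sets, Unc13c (limma adjusted p = 0.056) and Vipr2 (0.092) were not called, while Cacna1s and Adra2c were.

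Markers of microglia, the resident phagocytes of the retina, were also higher in the mGluR6 arrays and mostly in one of them. The summed intensity of 12 markers was 1393 in mGluR6 replicate 1, 301 and 284 in replicates 2 and 3, and 110 to 147 in the Pcp2 arrays, against 10948 to 12325 in the microglia line Csf2rb2. Of these 12 markers 6 were called higher in mGluR6 (Ctss, C1qa, C1qb, C1qc, Tyrobp and Tmem119) and 0 in Pcp2. With batch as a term 5 were called, all but Tmem119 (1.80, adjusted p = 0.06). Ctss, a lysosomal protease, read 458, 103 and 72.0 against 17.0, 9.33 and 8.10, a difference of 3.79 (SE 0.63, adjusted p = 6.4e-05). The complement gene C1qc read 241, 26.8 and 56.9 against 5.58, 8.47 and 5.70, a difference of 3.47 (SE 0.58, adjusted p = 7e-05).

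The other 6 markers were not called. Over the 12 markers, the arrays of 8 lay wholly above those of Pcp2 and of 1 wholly below, and 8 had an unadjusted p below 0.05 in limma. Cx3cr1 read 163, 28.3 and 23.6 against 45.3, 22.0 and 21.9, P2ry12 read 6.66, 13.3 and 3.19 against 3.85, 4.07 and 4.73, and neither was called. Trem2 read 15.5 to 20.3 in mGluR6 and 21.4 to 32.9 in Pcp2. Without mGluR6 replicate 1, Tmem119 (adjusted p = 0.40), Tyrobp (0.21) and C1qa (0.077) lost their calls, while the difference was 2.99 for Ctss, 2.60 for C1qc and 2.07 for C1qb. Aif1, at 0.96 just under the threshold with all arrays, was called without that array (1.09, adjusted p = 0.016), which makes 4 markers called there. The phagocyte gene Cd68, picked after its values were seen, read 55.9, 20.9 and 79.9 against 11.6, 6.30 and 7.95. Among the 461 probe sets higher in mGluR6, the Csf2rb2 mean lay at least 2 log2 units above the mGluR6 mean for 36 (7.81%). This share was 3.99% of all tested probe sets and 13.7% of the 161 higher in Pcp2. The calls sorted both groups on the mGluR6 mean, which enters this measure, so these shares are a description and cannot be compared between the directions. Cyba and Abracl, named above, were among the genes with their highest mean in the Csf2rb2 set (1636 and 709). The part of microglial RNA in the other differences was not tested. Grm6 and Bhlhe23 kept differences of 2.92 and 2.05 without mGluR6 replicate 1.

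**Figure D5:**
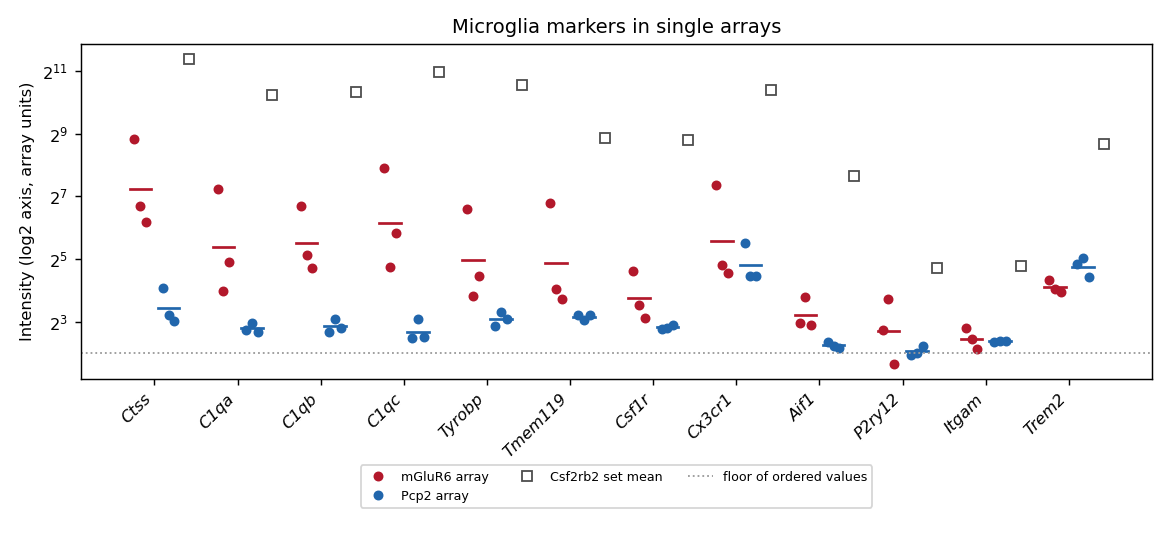
Intensity on a log2 axis of 12 microglia markers in each mGluR6 array (red, replicates 1 to 3 from left to right) and Pcp2 array (blue), with short lines at the set means and open squares at the mean of the microglia line Csf2rb2. For most markers mGluR6 replicate 1 is the highest of the 6 arrays, and the Csf2rb2 means lie above all of them.

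Markers of other retinal cells were compared in the same way. None of the tested rod (12), cone (11), ganglion (10), Müller glia (12), endothelial (7) and pigment epithelium (7) markers was called by limma. An unadjusted p below 0.05 was found for 1 rod, 1 ganglion and 1 pigment epithelium marker and for none of the others. The summed intensity of rod markers was 795 to 1155 in the mGluR6 arrays and 623 to 767 in the Pcp2 arrays, against 10676 to 12524 in the batch 1 set of the b2 rods, and most of it came from Rom1 (735, 984 and 784 against 365, 476 and 501). Of the 12 rod markers 10, 5 and 6 were at or below the floor in the mGluR6 arrays and 3, 3 and 6 in the Pcp2 arrays, Pde6b and Cnga1 in all 6 arrays. The summed intensity of cone markers was 125 to 172 in the mGluR6 arrays and 54.5 to 70.7 in the Pcp2 arrays, which do not overlap, against 14286 to 16852 in the cone line Chrnb4. The arrays of 7 of the 11 tested cone markers lay wholly above those of Pcp2 and 3 wholly below, and with values raised to the floor the median difference of 1.39 became 0.00. Markers shared by rods and cones summed to 1755 to 2278 against 1427 to 1746, and 0 of 15 were called (4 with an unadjusted p below 0.05 in limma). The part of photoreceptor RNA in the other differences was not tested. Of 12 amacrine markers 3 were called, against 4.09% of all tested probe sets. Pax6 (1.23, adjusted p = 0.0077) and Meis2 (1.27, adjusted p = 0.016) were higher in mGluR6, and Slc32a1, the vesicular GABA transporter, was higher in Pcp2 (-1.02, adjusted p = 0.037) with overlapping arrays (77.2, 29.3 and 29.6 against 97.9, 84.6 and 67.9). All 3 missed the threshold with batch as a term (adjusted p = 0.18, 0.23 and 0.42). Without 1 array they were lost as well, Pax6 without mGluR6 replicate 1 (0.11) or Pcp2 replicate 2 (0.053), Meis2 without mGluR6 replicate 1 or 3 or Pcp2 replicate 1 (0.061 to 0.091), and Slc32a1 without mGluR6 replicate 2 or 3 or Pcp2 replicate 1 or 2 (0.10 to 0.21). The GABA-synthesising enzymes Gad1 and Gad2 overlapped between the lines. Onecut2 (-1.54, adjusted p = 0.032), on the horizontal cell list, and Kcnj8 (-1.61, adjusted p = 0.0059), on the pericyte list, were higher in Pcp2 and were not called with the term (adjusted p = 0.20 and 0.15). The call of Onecut2 was also lost without mGluR6 replicate 1 or 3 or Pcp2 replicate 1 or 2 (adjusted p from 0.076 to 0.17), and that of Kcnj8, which was high in Pcp2 replicate 2 (66.0 against 17.9 and 18.3), without that array (0.16).

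The genes with the largest differences in favour of Pcp2 mostly read at or near the floor in mGluR6. By the same rule these were A530032D15Rik, 1700054O19Rik, Rasl2-9, Gm10139, A530040E14Rik, Gm15455, Rep15, Krtap5-1, Lgals1, Aurkc, Lce1h and Teddm3, and with the batch term also Hspa1a, Olfr745, AY512931, Rprl2 and Hpcal1. A530032D15Rik read 319, 236 and 491 in the Pcp2 arrays and 1.21, 0.686 and 0.741 in the mGluR6 arrays, a difference of at least 6.38 in size (adjusted p = 1.3e-05 as deposited). Its mean was 196 in the Kcng4 line, 274 in the Lhx4 line and 1402 in the b2 rods of batch 1. The mGluR6 line was thus the low one, ranking 25 of 26 sets. 1700054O19Rik, at 269, 218 and 248 against 1.09, 0.549 and 0.576, was lowest of all 26 sets in mGluR6.

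Lgals1, galectin 1, read 52.1, 46.0 and 59.8 in Pcp2 and 2.33, 2.08 and 1.62 in mGluR6, a difference of at least 3.71 in size (adjusted p = 0.00031 as deposited). It differed between the rod sets in the other direction, with means of 10.9 in batch 1 and 199.9 in the second set, of batch 2. Rasl2-9, Rep15, Aurkc, Lce1h and Teddm3 were not called with batch as a term (adjusted p from 0.054 to 0.23). Calls lost without 1 array were those of Aurkc (mGluR6 replicate 1 or 2, adjusted p = 0.073 and 0.094), Lce1h (Pcp2 replicate 1, 0.063), AY512931 (mGluR6 replicate 1 or Pcp2 replicate 1, 0.069 and 0.086) and Rprl2 (mGluR6 replicate 1, 0.097). Of the 161 probe sets higher in Pcp2, 60 had at least 1 mGluR6 array at or below the floor and 17 had all 3. For the 461 of the other direction the Pcp2 arrays were at the floor for 41 and 11.

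For 114 of the 161 probe sets higher in Pcp2, the mean of the batch 1 rods exceeded the Pcp2 mean, compared with 48.4% of all tested probe sets. This, too, is a description, since the call sorted them on the Pcp2 mean. The mGluR6 mean was the lowest of the 4 bipolar sets for 83.2% of the 161, against 24.5% of all tested. Whether rod RNA or batch bears on these values was not tested.

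Of 18 tested immediate early and stress genes 2 differed. Both were heat shock genes and both were higher in Pcp2. Hspa1a, an inducible chaperone, read 7.84, 85.3 and 52.8 against 1.00, 0.489 and 0.520, a difference of at least 3.04 in size (adjusted p = 0.0026 as deposited). Hspb1, a small heat shock protein, read 22.1, 22.7 and 31.5 against 5.02, 9.60 and 5.76, a difference of -1.95 (SE 0.50, adjusted p = 0.012) that was lost with batch as a term (adjusted p = 0.17) without mGluR6 replicate 1 (adjusted p = 0.087) and without Pcp2 replicate 3 (0.066). The immediate early genes Fos, Jun, Junb and Egr1 were not called, and their differences ran from -0.34 to 0.55.

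Among further genes higher in Pcp2, 3 were picked after their values were seen because their calls held with batch as a term. Cplx1, a complexin that clamps synaptic vesicles, read 33.4, 34.6 and 33.0 in Pcp2 and 10.5, 10.6 and 9.12 in mGluR6 (difference -1.74, SE 0.30, adjusted p = 9e-05). Camk2n1, an inhibitor of calmodulin-dependent kinase II, read 92.1, 76.5 and 61.1 against 16.4, 19.9 and 26.7 (difference -1.87, SE 0.28, adjusted p = 1.2e-05). Ywhaz, a 14-3-3 adaptor protein, read 184, 152 and 180 against 40.2, 57.0 and 51.9 (difference -1.80, SE 0.29, adjusted p = 5.3e-05). For all 3 the mGluR6 mean was the lowest of the 26 sets, below the Kcng4 and Lhx4 lines. Less the difference between the second and first Arc sets, Cplx1 (limma adjusted p = 0.063) and Ywhaz (0.27) were not called, while Camk2n1 was.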

How the data were processed

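The authors deposited 1 intensity per probe set for each of 78 Affymetrix Mouse Gene 1.0 ST arrays (26 sets of 3). The submitters' processing notes name RMA, oligo, R 2.11.1 and mm9. Intensities, between 0.0238 and 5770 and linear, have identical sorted columns, and log2 was taken. Of 22347 probe sets, 735 with several symbols and 2166 with none were left out. A gene is shown by its brightest probe set over the 78 arrays. Genes were named by size of difference, as the report states, as line markers or as list members. Others were picked after their values were seen, as stated there.

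Linear models with 1 mean per set and a trended prior were fitted in limma 3.58.1 (R 4.3.3) over all 78 arrays. The batch term used arrays with a batch label, with the second Arc set taken as batch 2 from its number, so it rests on b2 and Arc. The fit was tested on simulated data. Listed symbols were matched directly or by RefSeq synonyms. Members, lists and rules were chosen with earlier results of these data known. The p-values measure the spread between arrays of a set, and the number of arrays limits precision. Same-numbered arrays deviated together at r between -0.0098 and 0.0012, so numbers were not used as pairs. Figures used matplotlib 3.10.9.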

Additional observations from a re-analysis of the deposited data

How the results depend on the processing

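With 3 arrays a line, 1 batch a line and many low intensities, small differences are not resolved. The counts of 461 and 161 probe sets (higher in mGluR6, higher in Pcp2) became 127 and 24 with batch as a term, 137 and 41 less the batch difference of the b2 rods, and 49 and 10 less the Arc difference. They were 240 and 143 from the 6 arrays alone, and 278 and 133 from the 12 bipolar arrays. Leaving out 1 array gave 268 to 477 and 39 to 164. The fewest of both followed leaving out mGluR6 replicate 1, and leaving out Pcp2 replicate 1 gave 290 and 81, Pcp2 replicate 2 325 and 92, and mGluR6 replicate 2 313 and 98. With the replicate block they were 454 and 156. Filtering on the 2 sets alone reduced the 8 calls between Arc sets to 4. Of the 58 called genes that the lists and the rule name, batch as a term left 31 called. The same term with values raised to the floor (chosen after seeing the data) left 27. Less the b2 difference 24 stayed called, and less the Arc difference 16. The 6 arrays alone left 34, the 12 bipolar arrays 39, and the replicate block 58. Leaving out mGluR6 replicate 1 kept 38. Of these genes only Tpi1 changed sign under any alternative run, at -0.23 less the b2 difference. The cause was not tested.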

Other observations

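Families of genes outside the neuronal lists were looked at by symbol after the calls were seen. Of 44 tested collagen genes 8 were higher in Pcp2 and 0 in mGluR6, with a median difference of -0.62, where the share over all tested probe sets is 1.06%. They include the 3 chains of collagen IX. Col9a3 read 47.2, 48.2 and 55.3 in Pcp2 and 12.4, 15.6 and 18.3 in mGluR6 (difference -1.72, SE 0.36, limma adjusted p = 0.002), and it was the only one of the 8 that stayed called without mGluR6 replicate 1. Col9a2 read 49.1, 52.1 and 55.1 against 5.0, 18.4 and 17.6 (difference -2.15, adjusted p = 0.028), and its call was lost without mGluR6 replicate 1 (0.26) or any 1 Pcp2 array (0.074 to 0.079). None of the 8 was called with batch as a term, and the batch 1 rods had means of 69.6 for Col9a3 and 92.1 for Col9a2.

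Of 29 tested keratin-associated protein genes 8 were higher in Pcp2 and 0 in mGluR6, with 1 left with batch as a term and 2 left without mGluR6 replicate 1. Krtap3-1 read 73.7, 63.6 and 74.0 against 7.20, 14.2 and 25.1, its mean in the batch 1 rods was 130.1, and it was not called with the term (adjusted p = 0.30) or without mGluR6 replicate 1 (0.096). Of 455 tested olfactory receptor genes 10 were higher in Pcp2 and 3 in mGluR6, with 2 left higher in Pcp2 with the term. For both families the shares over all tested probe sets are 1.06% higher in Pcp2 and 3.03% in mGluR6. With the term, 0.158% were higher in Pcp2. The members of each family are related in sequence, so they are not independent of each other.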
